A study of Caenorhabditis elegans with 2 samples.

Results

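These are the weak regions of a chromatin immunoprecipitation sequencing (ChIP-seq) experiment whose summits fall inside protein-coding sequence. They were chosen by signal rank and summit position. From the authors' list of 30000 regions called on both replicates combined, sorted by the deposited signal from high to low, the regions ranked 5001 to 30000 were taken, and those whose summit lay in an annotated coding exon of a protein-coding gene were kept. That gave 6188 regions out of 25000 in the rank window and out of 30000 in the list. They lay in 4702 of 19973 protein-coding genes, called host genes here. The ranks and the coding position are what selected the members, so neither is a finding, and no p-values are given.

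The protein followed was C04F5.9, fused at its C terminus to GFP and FLAG tags in Caenorhabditis elegans strain OP525, genotype unc-119(tm4063) III; wgIs525. Whole hermaphrodite L1 larvae starved after bleaching were collected 6 hours after synchronization, their chromatin was sonicated, and an antibody to GFP pulled down the tagged protein with its DNA. There were 2 biological replicates of this 1 group and no second condition. Both replicates carried the unc-119 allele and the transgene, for which the sources used here give no promoter and no expressing cell type, and whole animals mix all larval tissues. The list of replicate 1 held 30000 regions and that of replicate 2 held 28005. An optimal list of 1205 regions, thresholded by the authors on agreement between replicates, made up the 1205 highest ranks of the combined list. Read depth is unknown for every list.

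Binding of a sequence-specific factor is usually sought in promoters and enhancers, which in C. elegans lie mostly upstream of genes and in introns. A relaxed peak list reaches far below such sites by design, into positions where immunoprecipitated and control reads hardly differ, because the procedure that compares replicates needs a supply of irreproducible regions. Coding exons of this animal are short, lie close to introns and neighbouring genes, and are richer in G and C than the sequence around them.

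The bases at the summits show what the members look like. The first 5 sequences are the members with the highest signal on 5 of the chromosomes, each covering 50 bp on either side of the summit and read 5′ to 3′ on the strand of the host gene, from the RefSeq genome sequence of assembly WBcel235 (ce11). Capitals mark coding bases and lower case marks intron. All 5 windows crossed an exon boundary, with 62 to 90 of 101 bases coding.
C13B4.1 (chrII:14475910-14476010, minus strand): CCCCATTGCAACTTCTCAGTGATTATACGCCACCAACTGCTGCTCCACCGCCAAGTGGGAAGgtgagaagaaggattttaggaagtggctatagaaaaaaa
rle-1 (chrIII:10937396-10937496, plus strand): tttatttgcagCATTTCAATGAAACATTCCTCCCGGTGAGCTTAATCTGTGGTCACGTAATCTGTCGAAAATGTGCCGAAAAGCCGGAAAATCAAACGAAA
C08F8.9 (chrIV:11178177-11178277, minus strand): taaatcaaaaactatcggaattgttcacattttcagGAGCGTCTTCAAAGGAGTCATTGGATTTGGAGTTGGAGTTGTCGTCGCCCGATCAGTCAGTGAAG
ccep-97 (chrV:4814646-4814746, minus strand): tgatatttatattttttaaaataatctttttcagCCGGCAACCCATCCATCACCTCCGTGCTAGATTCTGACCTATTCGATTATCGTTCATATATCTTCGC
F47G3.4 (chrX:2382124-2382224, plus strand): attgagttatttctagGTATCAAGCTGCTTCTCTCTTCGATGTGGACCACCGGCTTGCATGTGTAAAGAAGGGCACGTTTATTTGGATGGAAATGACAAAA

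The gene din-1 came first among the host genes by number of members, and it encodes a nuclear corepressor that interacts with the hormone receptor DAF-12. Its 3 members found in both replicate lists are shown because they illustrate several weak regions within 1 gene. All 101 bases were coding in each.
din-1 (chrII:11626136-11626236, minus strand): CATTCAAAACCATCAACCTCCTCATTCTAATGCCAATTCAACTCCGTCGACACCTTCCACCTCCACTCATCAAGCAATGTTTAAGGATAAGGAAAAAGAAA
din-1 (chrII:11626351-11626451, minus strand): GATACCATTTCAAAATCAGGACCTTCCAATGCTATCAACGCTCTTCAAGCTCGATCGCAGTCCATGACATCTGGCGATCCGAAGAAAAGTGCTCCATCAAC
din-1 (chrII:11618130-11618230, minus strand): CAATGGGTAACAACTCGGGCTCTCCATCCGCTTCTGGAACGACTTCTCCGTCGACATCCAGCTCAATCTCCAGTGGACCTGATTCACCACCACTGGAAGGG

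Another pair of members is shown because each holds the word AGACGCAG or its reverse complement, the 8-base word most over-represented at the summits of the optimal list. These were chosen after their values had been seen. The clec-146 window begins at the start codon, so it has 86 bases, and clec-146 belongs to the family of genes with C-type lectin domains.
clec-146 (chrII:13593648-13593733, minus strand): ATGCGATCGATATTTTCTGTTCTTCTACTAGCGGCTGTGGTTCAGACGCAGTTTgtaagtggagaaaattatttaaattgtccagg
D1046.16 (chrIV:8922217-8922317, plus strand): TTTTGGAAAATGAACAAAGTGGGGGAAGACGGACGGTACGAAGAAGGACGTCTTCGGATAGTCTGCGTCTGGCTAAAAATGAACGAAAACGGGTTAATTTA

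The members lay in a narrow range of low signal. Their signal, on the authors' own scale for the combined list, ran from 17.8 to 35.9 with a median of 22.8, a 2.02-fold span, while the optimal list began at 72.2 and reached 29681. The deposited q value of the members ran from 0.385 to 0.940 with a median of 0.860, so no member had a q below 0.385. The rank limit cut through closely spaced values. The region at rank 5000 had a signal of 35.8946 and that at rank 5001 had 35.8824. The last coding regions left out were at itsn-1 with rank 4997 and signal 35.8987, at F19F10.11 with rank 4995 and at picd-1 with rank 4982. Every member was 384 bp wide, which is the usual width in the list. Of the 6188 members, 5513 (89.1%) reached beyond the coding exon that held the summit, and 675 lay wholly inside it.

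The 5 members of highest signal were at C08F8.9, C13B4.1, F47G3.4, Y54G2A.11 and rle-1, which encodes a ubiquitin ligase. All 5 were in the list of replicate 1, but 2 were missing from that of replicate 2. The C08F8.9 member, rank 5001 of the combined list, overlapped rank 2237 of replicate 1 and rank 14089 of replicate 2. The rle-1 member, combined rank 5017, overlapped ranks 3582 and 21090. The members at C13B4.1 and F47G3.4 overlapped ranks 2983 and 2639 of replicate 1 and nothing in replicate 2. The 5 members of lowest signal, at rbpl-1, Y49E10.29, ced-11, usp-33 and calm-1, each overlapped 1 replicate list only. The usp-33 member, combined rank 29996, overlapped rank 3310 of replicate 2. The calm-1 member, the last of all at rank 30000, overlapped rank 22017 of replicate 1.

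Weak regions fell in coding sequence about as often as coding sequence occurs in the genome. In the rank window 24.8% of 25000 summits were coding (exact 95% binomial interval 24.2 to 25.3, which covers counting error only), and 24.6% of the bases of the 6 nuclear chromosomes are coding. The density was 25.1 regions per 100 kb in coding exons, 26.0 in introns, 24.4 between genes and 28.1 in untranslated exons. In non-coding genes and pseudogenes it was 15.6. The optimal list differed, with 15 of its 1205 summits in coding exons (1.24%, interval 0.698 to 2.04). Ranks 1206 to 5000 held 16.5% (interval 15.3 to 17.7) and each bin of 5000 ranks below that held between 23.6% and 25.7%. The intervals of the 5 bins below rank 5000 overlapped one another, and each included the genome share.

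**Figure D1:**
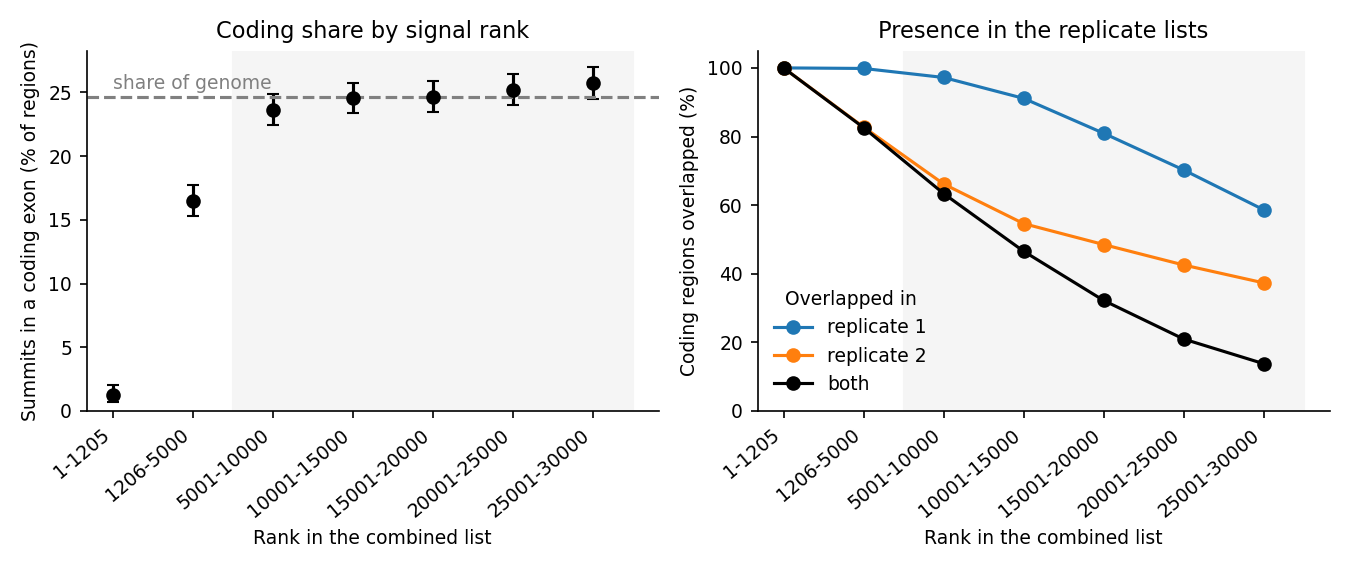
Left, the percentage of regions with the summit in a coding exon by rank in the combined list, with exact 95% binomial intervals and a dashed line at the coding share of the genome (24.6%). Right, the percentage of coding-exon regions overlapped by at least 1 bp in replicate 1, replicate 2 and both. Grey shading marks the ranks of the members; the coding share rises from 1.24% to about the dashed line while presence in both replicates falls from 63.4% to 13.8% within the shading.

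Members were seen more often in replicate 1 than in replicate 2. Of 6188 members, 4904 (79.3%, interval 78.2 to 80.3) overlapped a region of replicate 1 by at least 1 bp, against 78.2% of all 25000 weak regions. In replicate 2 it was 3066 (49.5%, interval 48.3 to 50.8), against 53.5% of all weak regions. Both lists held 2158 members (34.9%, interval 33.7 to 36.1), against 37.8% of all weak regions, and 376 members (6.08%) were in neither list. The share in both lists was lower for members than for the 18812 weak regions outside coding exons, of which 38.8% (interval 38.1 to 39.5) were in both. Neighbouring regions can meet the same replicate region, so regions are not independent units, and this difference was not tested. A region of the same width centred on any coding base would have met the list of replicate 1 in 19.8% of positions, that of replicate 2 in 17.9% and both in 7.64%. The combined list was made from both replicates, so presence in the replicate lists is not independent of membership.

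Presence fell steadily with rank. In ranks 5001 to 10000 the coding regions were in replicate 1 in 97.2%, in replicate 2 in 66.2% and in both in 63.4%. In ranks 25001 to 30000 these shares were 58.6%, 37.3% and 13.8%, and 17.8% were in neither. The share in both was below that of the regions outside coding exons in each of the 5 bins, by the widest margin at ranks 5001 to 10000 (63.4% against 70.1%). Among members found in a replicate, the best rank there had a median of 13542 in replicate 1 (quartiles 8404 and 20296) and 12776 in replicate 2 (quartiles 7210 and 19378). An overlap of 1 bp is enough, so these ranks can be those of a stronger neighbouring region. In replicate 1, 450 members (7.27%) overlapped a region ranked 5000 or better, and in replicate 2 it was 468 (7.56%). Of the members, 44.4% were in replicate 1 only and 14.7% in replicate 2 only.

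Most host genes held a single member. Of 19973 protein-coding genes, 23.5% held at least 1 member and 5.43% held at least 2. Among the 4702 host genes, 3617 held 1 member, 824 held 2, 177 held 3 and 54 held 4. At least 5 members were found in 30 genes, and the most was 8. The 1085 genes with several members together held 2571 members, 41.5% of all. Neighbouring members of 1 gene had summits a median of 1498 bp apart (quartiles 772 and 3154, range 199 to 36699). The 384-bp regions overlapped each other in 181 of 1486 neighbouring pairs (12.2%), and 161 pairs lay on the same region of replicate 1 and 103 on the same region of replicate 2, so presence in a replicate is not counted independently for such pairs. Whether they are separate sites was not tested. A further 3 members lay in coding exons of 2 genes.

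Long genes held members more often, at much the same density. Genes were divided by coding length into 10 classes of equal number. In the shortest class (27 to 327 bp) 6.31% were hosts, and in the longest (2265 to 45564 bp) 55.5% were. Members per 100 kb of coding sequence ranged from 18.7 to 27.8 over these classes, with 27.6 in the shortest and 25.5 in the longest. Hosts had a median of 7 coding exons in the transcript that held the member.

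The genes with the most members had long coding sequences and varied functions. The corepressor gene din-1 (chromosome II, 11614770 to 11633609, minus strand) and eel-1, which encodes a HECT-type ubiquitin ligase (chromosome IV, 3032713 to 3050104, minus strand), held 8 each. The next 7 genes held 7 each. They were Y75B8A.24; ssl-1, a SWI2/SNF2-type chromatin remodeller; let-711, the scaffold of the CCR4-NOT deadenylase complex; chd-7, a chromodomain helicase; ret-1, a reticulon of the endoplasmic reticulum; vab-10, a spectraplakin that links the cytoskeleton to attachments; and unc-22, the giant muscle protein twitchin. Another 6 genes held 6 each, and the one with the most members per kb of these was sos-1, a guanine nucleotide exchange factor for Ras. Together these are the 10 genes described here. Their coding lengths ran from 4479 bp in sos-1 to 21474 bp in unc-22, and their densities from 1.34 members per kb in sos-1 to 0.326 in unc-22. Over all genes the density was 25.3 members per 100 kb of longest coding sequence, and unc-22 came nearest to that value. These genes were picked for their high counts, so a density above that of all genes is not a finding.

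The 8 members of din-1 spread over 14069 bp of the gene and ranked between 5159 and 26929. Their signals were 35.4, 28.1, 27.3, 24.8, 24.7, 23.3, 20.8 and 18.8. All 8 were in replicate 1, at ranks from 4103 to 22429, and 3 were in replicate 2, at ranks 8769 and 17896, the latter shared by a pair of members. That pair is the neighbouring one with overlapping regions in coding exon 12 of 21, a 1548-bp exon, so those members met 1 region in each replicate. The 8 members of eel-1 had signals from 18.2 to 26.3. Of these, 6 were in replicate 1, 3 in replicate 2, 2 in both and 1 in neither. The 2 in both were a neighbouring pair that met 1 region in each replicate, at ranks 15502 and 11396. For chd-7 all 7 members were in replicate 1 and 3 in replicate 2, while for Y75B8A.24 only 2 of 7 were in each replicate. Each of the 10 genes had between 1 and 3 members in both lists.

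Per kb of coding sequence, the densest host genes with at least 3 members were short. The highest was har-1, which encodes a small mitochondrial protein of the CHCHD family, with 3 members in 462 bp of coding sequence (6.49 per kb). Its members lay in coding exons 1, 2 and 3, at combined ranks 15241, 17495 and 28009. The first pair met the same region of replicate 1 (rank 11891), the third met rank 14514, and only the first met replicate 2, at rank 19379. The carbonic anhydrase gene cah-4 followed with 4 members in 840 bp (4.76 per kb), which began 5 bases into the coding sequence and ended at base 809. Of these 4, 3 were in replicate 1 and 4 in replicate 2, and the first pair met 1 region in each, at ranks 11804 and 3690. The other 8 were C06A12.3, C26B9.3, snap-29 (a SNARE protein of membrane fusion), Y55D5A.1, cpz-1 (a cathepsin Z-like protease), F54C8.7, decr-1.1 and sms-3 (a sphingomyelin synthase), at 3.14 to 3.95 per kb. Members of such short genes lie close together, and the 3 summits of har-1 spanned 516 bp of the genome.

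**Figure D2:**
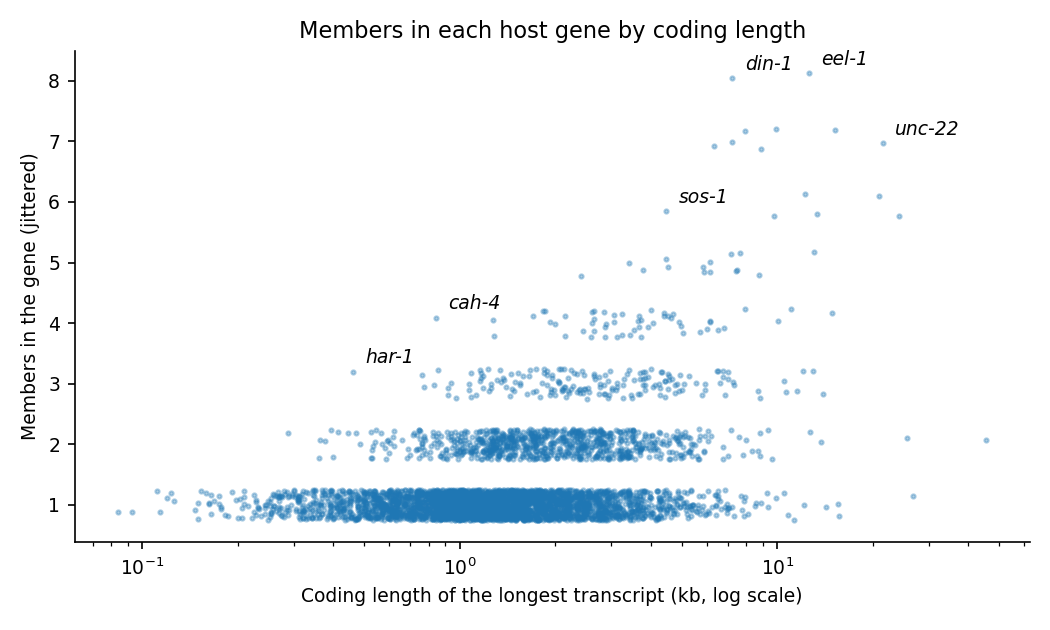
Each point is 1 of the 4702 host genes, plotted by the coding length of its longest transcript (kb, log scale) and its number of members, shifted slightly at random so that points separate. Genes with 7 or 8 members had coding lengths from 6318 to 21474 bp, while har-1 (3 members, 462 bp) and cah-4 (4 members, 840 bp) stand at the short edge.

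Along the coding sequence the members were spread broadly, with more at either end. The median position was 47.2% of the way from the start codon (quartiles 21.2 and 75.6). With the coding sequence divided into 10 equal parts, the first part held 13.7% of members (interval 12.9 to 14.6) and the last held 11.6% (interval 10.8 to 12.4), where an even spread gives 10%. The parts between them held from 8.73% to 10.3%. For 1999 members the summit was at most 500 bp from the 5′ end of a transcript (32.3%, interval 31.1 to 33.5), while 27.4% of coding bases lie so close. The density there was 29.5 per 100 kb of coding sequence, against 23.4 farther away. For 168 of these members the nearest 5′ end belonged to another gene. Among the 4189 members beyond 500 bp, the first part held 2.60%, against 1.99% of the bases of their transcripts beyond that distance. The last part held 14.2%, against 11.9% of such bases.

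**Figure D3:**
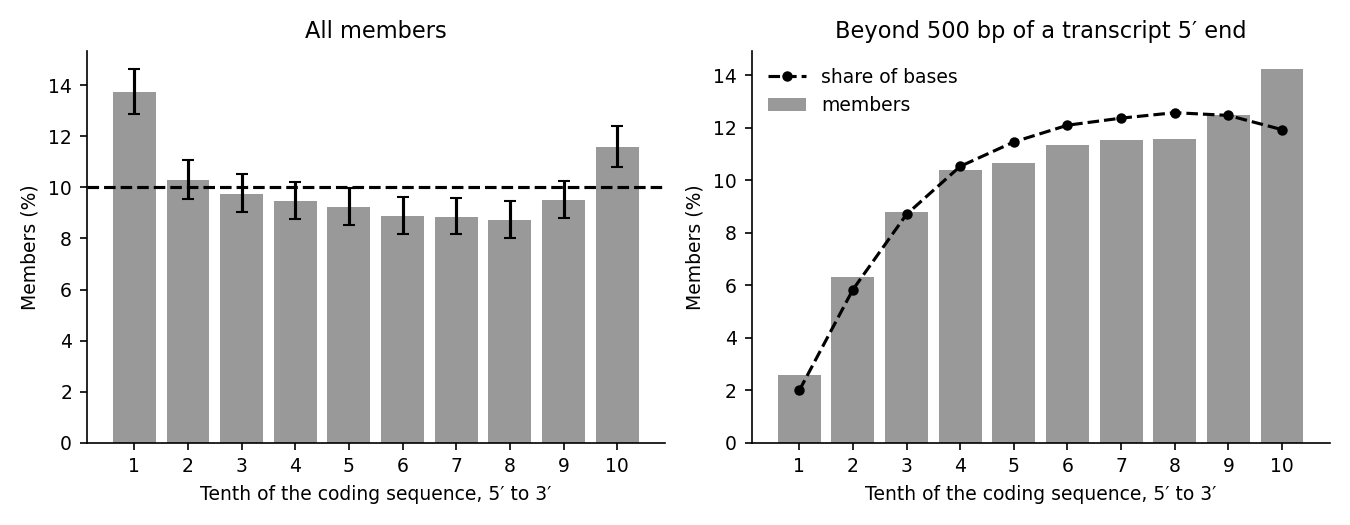
Percentage of members in each of 10 equal parts of the coding sequence, numbered from the 5′ end, of the transcript that held the summit. Left, all 6188 members with exact 95% binomial intervals and a dashed line at 10%; right, the 4189 members beyond 500 bp of any transcript 5′ end (bars) with the share of their transcripts' bases in the same part (dashed points). The first part (13.7%) and the last (11.6%) are the highest bars on the left, and the last (14.2%) is the highest on the right.

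By exon, first coding exons held 13.2% of members (interval 12.4 to 14.1), against 10.8% of the coding bases of the members' own transcripts. Last coding exons held 16.5% (interval 15.6 to 17.4), against 15.1% of bases. Internal exons held 69.6% (interval 68.4 to 70.7), against 73.4%. Coding sequences of a single exon held 47 members (0.760%). Summits lay a median of 52 bp from the nearest edge of their exon, against 55 bp for coding bases at large, and the exons had a median length of 236 bp, against 251 bp.

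The summits were richer in G and C than their flanks, and this contrast was small where the flanks were coding too. The mean GC content of the 101 bp at the summit was 43.1% (SD 7.75 over 6188 members), and in flanks 200 to 250 bp away it was 37.7% (SD 8.35). The summit was higher in 4387 members (70.9%). Among weak regions outside coding exons it was 34.5%, against 35.4% in their flanks, and the summit was higher in 46.4%. The genome averages were 41.1% for coding bases and 33.6% for the others. Where both flanks lay in the same exon as the summit, which was so for 423 members, the summit had 48.1% and the flanks 47.2%, and the summit was higher in 57.0%. Where the whole summit window lay in the exon, which was so for 3216 members, it had 46.1%, against 45.1% for the host's whole coding sequence. In the optimal list the summit had 46.6% and the flank 35.5%.

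The leading word of the optimal list was at its coding-sequence rate in the members. AGACGCAG, searched on both strands, is the 8-base word with the largest surplus at optimal summits over their flanks, and it stood within 50 bp of 113 of 1205 optimal summits (9.38%, interval 7.79 to 11.2). It stood within 50 bp of 14 of 6188 member summits (0.226%, interval 0.124 to 0.379), and windows of that length centred on any coding base hold it in 0.192%. Weak regions outside coding exons held it in 210 of 18812 (1.12%, interval 0.971 to 1.28). The flanks, 102 bases per region in 2 stretches, held it in 149 of these 18812 regions and in 40 of the 6188 members. The rate in windows centred on non-coding bases is not given here. The 7-base word CTGCGTC, whose reverse complement overlaps the longer one, was in 38 members (0.614%), against 0.579% of coding windows. The holders of the 8-base word with the highest signal were the clec-146 and D1046.16 members printed above, at ranks 5022 and 5523, and both were in each replicate. A match is a description of letters and not of binding.

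Member density varied among chromosomes, and coding and non-coding sequence varied alike. It was highest on chromosome III, with 1246 members and 35.1 per 100 kb of coding sequence, and on chromosome I, with 1221 members and 31.0. Chromosome IV had 25.7, II had 22.3, and X and V had 19.6 each. Weak regions outside coding exons followed the same order from III (32.2 per 100 kb of non-coding sequence) through I (30.04), IV (25.7), II (23.4) and X (21.7) to V (19.6). Of 3 equal parts of chromosome III, the right one reached 45.3 members per 100 kb of coding sequence, and the central one had 25.6. The share of members in both replicates ranged from 32.1% on X to 37.1% on I. Of 1005 windows of 100 kb, 977 held a member, with a median of 6 and a maximum of 22, so the members were spread over nearly the whole genome.

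**Figure D4:**
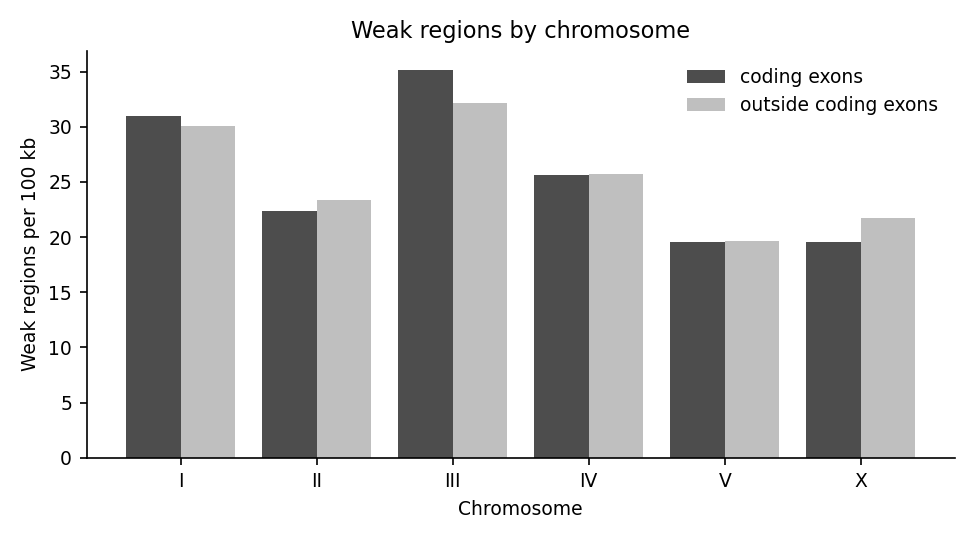
Weak regions (combined ranks 5001 to 30000) per 100 kb on each chromosome, in coding exons (dark bars, the members, per 100 kb of coding sequence) and outside them (light bars, per 100 kb of other sequence). Both bars are highest on III (35.1 and 32.2) and lowest on V (19.6 and 19.6) or, for coding exons, equally on X (19.6).

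Gene families were compared by density, because a family of long genes collects more members. The 20 lists were defined by gene symbol, with earlier results of these data known, and are described by counts beside the value for all genes, 25.3 members per 100 kb of longest coding sequence with 23.5% of genes as hosts. Above that value lay 7 lists and below it 13. Each interval given for a list is an exact 95% Poisson interval of its member count, as a ratio to the density over all genes, and covers counting error only.

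Chaperone genes had the highest density of the 20 lists over all members, though not under every alternative. Heat shock proteins and chaperones, which fold newly made and damaged proteins, held 55.5 members per 100 kb, 2.20 times the value for all genes (interval 1.60 to 2.95), in 26 of 66 genes. The genes with the most were hsp-60, the mitochondrial chaperonin, with 4 members, and cct-2 and cct-5, subunits of the cytosolic chaperonin, with 3 each. All 4 members of hsp-60 were in replicate 1 and 2 of 4 were in replicate 2, with combined ranks from 6392 to 24148. Of the 51-base coding stretches of all 66 genes, 2.66% occurred more than once in the genome. The list was above the other genes of the same chromosome on each of the 6 chromosomes, from 30.9 against 25.8 on IV to 79.4 against 19.6 on V. These values rest on few members, from 3 on X to 13 on III, with 4 on IV and 11 on V. Members more than 1 kb from any optimal summit gave 54.6 per 100 kb, and the introns of the same genes held 49.1 weak regions per 100 kb, against 25.9 in the introns of all genes. Ribosomal protein genes were denser than chaperone genes at ranks 5001 to 15000 (3.08 against 2.18 times the value for all genes) and in the list of replicate 2 alone (2.57 against 2.04 times).

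Genes of protein synthesis were also above the value for all genes. Cytosolic ribosomal proteins held 45.4 members per 100 kb (1.80 times, interval 1.07 to 2.84) in 17 of 82 genes, with rpl-3 alone holding 2. Translation factors and aminoacyl-tRNA synthetases held 36.9 (1.46 times, interval 1.05 to 1.98) in 33 of 71 genes, led by mars-1, the methionyl-tRNA synthetase, with 3. The introns of these lists held 53.1 and 34.3 weak regions per 100 kb. The ribosomal value rests on 18 members, of which 4 (22.2%) were in both replicates, against 34.9% of all members, and 12 were in replicate 1 only. It was 3.08 times the value for all genes at ranks 5001 to 15000 and 1.15 times among members found in both replicates. Of the 18, 10 lay more than 1 kb from any optimal summit, which gave 53.1 per 100 kb of coding sequence at that distance.

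Chromatin regulators, which modify, read or remodel nucleosomes, held 37.2 members per 100 kb (1.47 times, interval 1.16 to 1.84), in 47 of 89 genes. They were led by chd-7 with 7, set-16, an MLL-type histone methyltransferase, with 5, and the histone deacetylase gene hda-10 with 3. Of the 5 members of set-16, 4 were in both replicates. Among these, the neighbouring members at combined ranks 19367 and 27490 met 1 region in each replicate, at ranks 22647 and 18182. The list was above the other genes on each chromosome except X, where it held 19.5 against 19.7. Its members per chromosome numbered from 7 on V and X to 18 on I. Homeobox factors held 33.5 (1.33 times, interval 0.888 to 1.90) and cuticle collagens 32.4 (1.28 times, interval 0.969 to 1.67), and both intervals include the value for all genes. Homeobox factors were at 0.976 times in the list of replicate 1 alone and at 0.855 times in that of replicate 2 alone. Collagen introns held 14.2 weak regions per 100 kb, homeobox introns 22.1 and introns of adhesion genes 22.9, against 25.9 in the introns of all genes. In these lists the coding density was thus above the value for all genes and the intron density below it. The reverse held for giant muscle proteins (introns 33.7), large cytoskeletal linkers (37.4) and nuclear hormone receptors (30.4), described below. In each of these lists, however, the interval of the coding density includes the value for all genes. It was 0.82 to 1.56 times for adhesion genes and 0.634 to 1.20 for giant muscle proteins. For linkers it was 0.547 to 1.21, and for nuclear hormone receptors 0.720 to 1.14. The intron values have no interval, and that of the collagens rests on 9 regions. The contrast between coding exons and introns was not tested. Adhesion proteins held 28.9, with 5 members each in tln-1, which encodes talin, and hmr-1, the cadherin. They were at 0.973 times the value for all genes in the list of replicate 1 alone and at 0.971 times in that of replicate 2. Members found in both replicates gave 0.493 times.

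Large structural genes held many members but not at high density. Giant muscle proteins, myosins and sarcomere proteins held 22.3 per 100 kb in 20 of 30 genes, with 7 in unc-22 and 6 in unc-89, the obscurin homologue. Members found in both replicates gave 0.494 times the value for all genes, against 0.884 times over all members. Large cytoskeletal linkers and spectrins held 20.95 in 7 of 11 genes, with 7 in vab-10, 6 in unc-44, which encodes ankyrin, and 4 in dys-1, which encodes dystrophin. At ranks 5001 to 15000 they were at 0.474 times the value for all genes, against 0.830 times over all members. Basement membrane and extracellular matrix genes held 14.6 (0.578 times, interval 0.348 to 0.902), with 6 in unc-52, the perlecan gene, and 3 in let-2, a type IV collagen gene. Nuclear hormone receptors held 23.1 in 60 of 274 genes, led by nhr-114 and nhr-119 with 3 each.

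Several large families lay below the value for all genes. Chemoreceptors, the receptors of sensory neurons, held 11.2 members per 100 kb (0.444 times, interval 0.376 to 0.522) in 139 of 1316 genes. F-box, BATH and MATH families, which include adaptors of ubiquitin ligases, held 10.8 (0.428 times, interval 0.312 to 0.573) in 42 of 412 genes. C-type lectins and innate immunity genes held 12.02 (0.476 times, interval 0.337 to 0.653) in 35 of 367 genes, and 0.717 times in the list of replicate 2 alone. Chromosome V carries 892 of the chemoreceptor genes and has a low density itself, but there too the list stood below the other genes, with 10.3 against 21.5 per 100 kb. It was below the other genes on each of the 6 chromosomes, the nearest being X with 18.2 against 19.7. Its members numbered 91 on V but only 2 on III and 7 on X. The introns of these 3 lists held 10.8, 14.6 and 13.7 weak regions per 100 kb. Of the 51-base stretches in their coding sequence, 4.46%, 7.68% and 5.58% occurred more than once in the genome, against 3.52% over all genes. How the authors treated reads that match several places is not stated, and the part of such copies in these densities was not tested.

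Some small lists held few members. Core and linker histones held 3 members in 83 genes, at his-2, hil-3 and hcp-3, the centromeric histone H3 variant. Major sperm proteins and other sperm families held 2 in 76 genes, at nspd-7 and ssq-2, and the 6 vitellogenin genes held 0. Actins, tubulins and intermediate filaments held 7 members in 32 genes, 1 in each of 7 hosts such as act-5, act-2 and tbg-1. That is 21.9% of the genes, near the 23.5% over all genes, and the interval of their density (0.230 to 1.18 times) includes the value for all genes. The density was 0.571 times that value, and 0.953 times in the list of replicate 2 alone. The intervals of the histone list (0.0740 to 1.05) and the sperm list (0.0341 to 1.02) include the value for all genes, and that of the vitellogenins reached 0.503. These families have many near-identical copies. Of their 51-base coding stretches, 56.0% occurred more than once in the genome for histones, 49.5% for the sperm families and 38.2% for vitellogenins, so their counts are uncertain. The histone density was 0.359 times the value for all genes over all members and 0.686 times among members found in both replicates, which were 2 of its 3, and neither sperm-family member was in both.

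**Figure D5:**
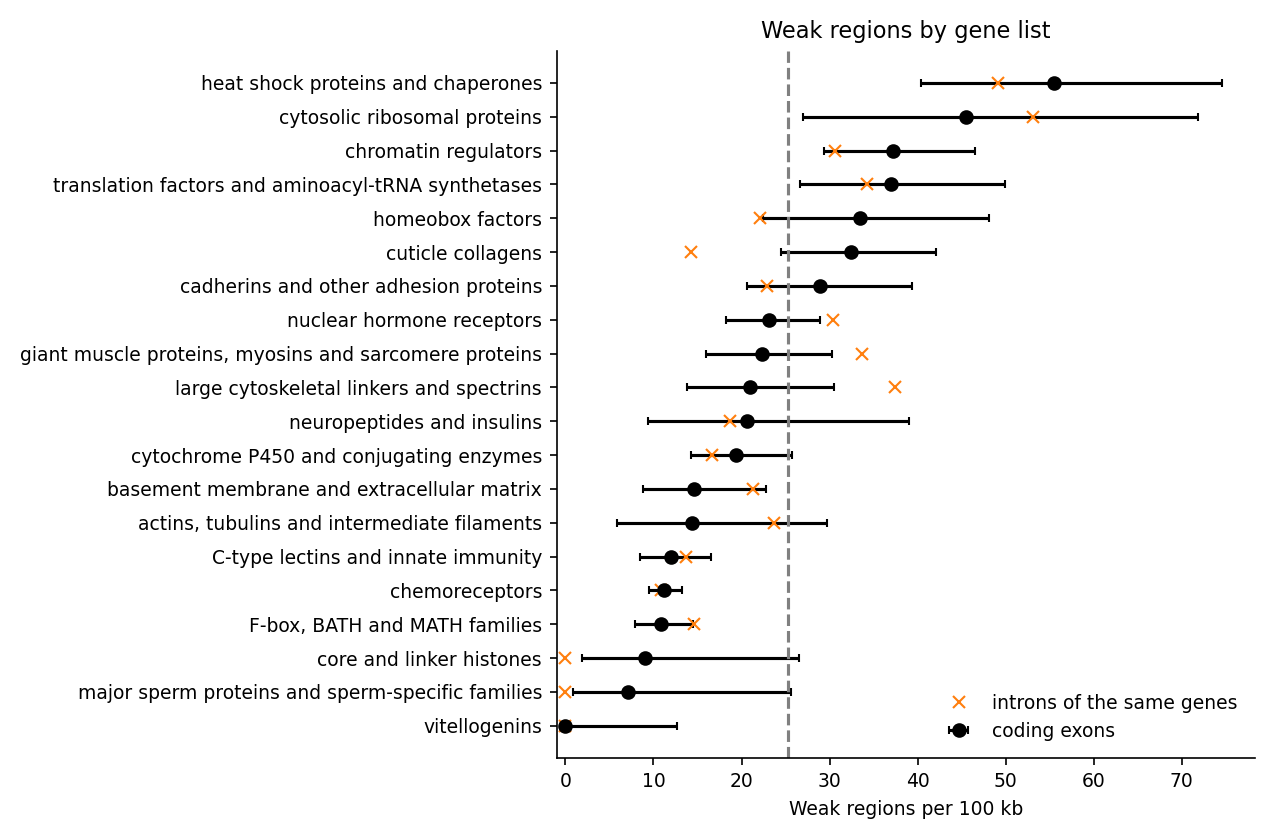
Weak regions per 100 kb for the 20 gene lists: members per 100 kb of longest coding sequence (black points with exact 95% Poisson intervals of the member count) and weak intron regions per 100 kb of intron (orange crosses). The dashed line marks 25.3, the coding value for all protein-coding genes; chaperones (55.5) are highest and vitellogenins (0) lowest.

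Members were more frequent in genes that also had a strong peak at their start. Of 1101 genes with an optimal summit within 500 bp of a 5′ end, 433 (39.3%) were hosts, against 22.6% of the other 18872, with 40.2 and 24.2 members per 100 kb. Of the 630 members in these 1101 genes, 449 lay more than 1 kb from any optimal summit. Over the unchanged coding length they gave 28.6 per 100 kb. That length still includes the bases within 1 kb, so 28.6 is a lower bound for the density farther away. It cannot be set beside 40.2 or 24.2, nor beside the gene-list values beyond 1 kb, for which the length was adjusted. Only 243 members (3.93%) lay within 1 kb of an optimal summit, 40 overlapped an optimal region, and the median distance to the nearest optimal summit was 24103 bp.

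The tagged gene and the strain marker were looked at in the same way. C04F5.9 held no member, and no region of the combined list lay within 20 kb of it. The gene unc-119 held no member, but 6 members in athp-1, com-1 and cut-6 lay within 20 kb of it, among 27 regions of the combined list there. For scale, the combined list held 30000 regions over 100273000 bp of nuclear chromosomes, and windows of 100 kb held a median of 6 members. What underlies the absence of regions near C04F5.9 or their number near unc-119 was not tested. Sequence copies touched few members. The 51 bases at the summit occurred more than once in the genome for 20 members (0.323%), with at most 4 copies, and those members cannot be placed with certainty.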

How the data were processed

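ChIP-seq regions of 2 biological replicates in ce11 were analysed. The authors deposited a list of regions for each replicate and for both combined, and an optimal list. Regions in the relaxed lists were called against a control to feed a comparison of replicates, per the text files deposited with them. The signal value deposited by the authors is set by each calling run and was used only within a list. The −log10 q value was deposited by the authors and is printed as q. The summit offset, another deposited column, gave the summit. No source used here names the aligner, the caller or their versions. Columns of other samples numbered 0. Lists in ce10, coverage tracks and control reads were not analysed here.

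Summits were placed on the Ensembl release 115 annotation of WBcel235 on the 6 nuclear chromosomes. A summit in several transcripts was placed in the one with the longest coding sequence. Overlap with a replicate list needed at least 1 bp. Intergenic, intron and exon classes gave coding sequence precedence, then untranslated exons, introns and other genes. GC content and words were taken from the summit with 50 bp on either side, and flanks lay between 200 and 250 bp away on both sides. Shares carry exact 95% Clopper-Pearson intervals. Regions are not replicates of a condition, and read depth is unknown, so no test between groups was possible. Placement was checked on simulated positions (747 of 747 recovered). Python 3.11.15, numpy 2.4.6, pandas 2.3.3 and SciPy 1.17.1 were used.

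The members and the lists were chosen with earlier results of these data known. Named genes are the 10 hosts with the most members, the 10 with the most per kb among those with at least 3, the hosts of the 5 highest and 5 lowest signals, up to 3 hosts per list, C04F5.9 and unc-119. Alternative rank limits, overlap rules, window sizes and transcripts were tried, and the closing section gives their effect.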

Additional observations from a re-analysis of the deposited data

How the results depend on the processing

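The coding share (24.8%) was 24.1% at ranks 5001 to 15000 and 23.0% to 25.5% in the 2 replicate lists alone. Presence in replicate 1, replicate 2 and both (79.3%, 49.5%, 34.9%) fell to 74.5%, 40.8% and 23.9% when 50% of the member had to be covered, to 68.9%, 32.8% and 16.1% for a summit within 100 bp, and to 44.4%, 29.2% and 11.2% with the 15000 highest regions of each replicate. At ranks 5001 to 15000 there were 2119 host genes and 257 with several members; the replicate lists gave 4308 to 4858 and 765 to 1108. The median position was 59.9% beyond 500 bp of a 5′ end and 46.2% to 47.5% in the replicate lists. In the same order, the first of 10 parts of the coding sequence held 2.60% and 12.3% to 13.8%, and the last 14.2% and 10.5% to 11.1%. Of the bases beyond 500 bp, 1.99% lie in the first part and 11.9% in the last. The median of 59.9% is therefore not to be set against an even spread. In hosts with 1 transcript, first coding exons held 15.7%, internal 62.7% and last 20.1% of members. The shares of coding bases by exon were not worked out for these hosts, so a stronger placement at the ends cannot be read from this. Replicate lists gave 12.9% to 13.6% for first and 15.6% to 15.8% for last exons. Summit GC was 44.4% with 25 bp each side, 48.1% with flanks in the same exon (flanks 47.2%) and 42.1% to 43.2% in the replicate lists (flanks 37.5% to 37.6%). The word share was 0.113% with 25 bp, 0.436% with 100 bp, 0.614% for 7 bases and 0.188% to 0.321% in the replicate lists. Lists above all genes numbered 6 to 7. Of the 20 lists, 15 kept their side of the value for all genes under all 5 alternatives; adhesion, linkers, nuclear hormone receptors, homeobox and neuropeptides did not. Homeobox genes ranged from 0.855 to 1.70 times that value and adhesion genes from 0.493 to 1.16. No paired analysis was possible because there was 1 group.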

Other observations

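The neuropeptide and insulin list held 9 members in 9 of 140 genes (20.6 per 100 kb), including flp-24, nlp-36 and ins-10. That was 0.814 times the value for all genes, and 1.41 times in the list of replicate 1 alone. Cytochrome P450 and conjugating enzymes held 19.3 per 100 kb in 39 of 185 genes, led by cyp-32B1 with 3.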
